A study of Macaca mulatta with 6 samples.

Results

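Genes of the presynaptic terminal, those that build, dock, release and recycle synaptic vesicles and those that form the photoreceptor and bipolar cell ribbon, were examined in the retinas of 3 adult male rhesus macaques aged 8 to 10 years. A list of 41 symbols was drawn up, and 23 of them were named by the annotation of the Affymetrix Rhesus Macaque Genome Array, out of 14132 genes with a probe set of their own. In each monkey the intraorbital part of 1 optic nerve had received gamma knife irradiation, with a prescribed dose of 15 Gy, and the retina of that side was the treated retina, while the retina of the other eye was the control retina. All 6 retinas were collected 24 h later, without the pigment epithelium, and RNA from the temporal side of each was hybridized to 1 array, giving 3 treated and 3 control arrays. The controls were not free of radiation, since the eyeball received 1 Gy on the control side and 3 Gy on the treated side, and each control retina came from an animal whose other nerve had been treated, so a change shared by both eyes could not be seen. The values are log2 MAS 5.0 signals, which also carry how well the probes of each set bind, so a gene was compared between retinas and never with another gene.

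Neurons pass signals by filling vesicles with transmitter, docking them at an active zone, fusing them with the membrane when calcium enters, and retrieving the membrane afterward. Fusion is driven by SNARE proteins, of which synaptobrevin (VAMP) sits on the vesicle and syntaxin and SNAP-25 on the cell membrane. In the retina most synapses of the inner plexiform layer that are made by amacrine cells are of the usual kind, whereas rods, cones and bipolar cells release glutamate continuously at a ribbon, a plate that holds vesicles close to L-type calcium channels. The main protein of the ribbon, RIBEYE, is made from the CTBP2 gene by a start site of its own and shares the rest of its sequence with the CTBP2 protein. RIBEYE is not a gene symbol of the array, and the annotation does not say which of the 6 CTBP2 probe sets detect the RIBEYE transcript, so no value is given for it.

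The 23 measured genes had 42 probe sets. A gene is described by its brightest probe set, the one with the highest mean log2 signal over the 6 arrays, and 9 genes had more than 1. The brightest probe sets had mean log2 signals from 5.92 (SNAP91) to 14.30 (STX3), so all were above 5, the level under which MAS 5.0 values become erratic, although 2 of the dimmer probe sets were not. The other 18 symbols (SYN1, SYN3, SYP, SYT2, SYT11, SLC17A6, SNAP25, CPLX1, CPLX3, CPLX4, UNC13A, NSF, NAPB, RIMS1, RIMS2, BSN, BIN1 and RIBEYE) were not analysed here. Of the markers of retina, 8 rod markers were measured, among them SAG (rod arrestin) and PDE6A (a subunit of the rod phosphodiesterase), with mean log2 signals of 13.94 to 15.43, and none was at 0 on any array. The median log2 signal of the arrays was 6.69 to 7.03 for control and 6.44 to 6.98 for treated retinas. The lowest was that of the treated retina of replicate 2. On this array 29.7% of all probe sets were under a log2 signal of 5, against 22.6% to 25.9% on the others.

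The presynaptic genes differed little between treated and control retinas. None of the 23 passed the paired limma test in either direction at an adjusted p under 0.05, a threshold that 0.212% of all 14132 genes passed, and the smallest adjusted p among them was 0.542. The unadjusted p was under 0.05 for 2 lower genes (CABP4 and SYNJ1) and 0 higher ones, against 3.01% of all genes lower and 5.02% higher, and without replicate 1 it was so for 0 genes. With the methods' t-test, p was under 0.05 for 2 higher (VAMP1 and NAPA) and 0 lower, where 4.21% and 2.84% of all genes were higher and lower, and 0 after Benjamini-Hochberg adjustment. The log2 difference, treated minus control, lay between −0.41 and 0.25, and for 22 of the 23 genes it was within 0.25 of 0. Its median was −0.039, with 14 genes below 0 and 9 above, while that of all genes was 0.032, with 44.5% below 0 and 55.5% above. When each array was centred on its median signal both medians moved up, to 0.058 and 0.13, so the side of 0 on which the presynaptic genes lie on balance differed with the scaling.

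The precision of these small differences was taken from the main limma fit, with its variance trend. The standard error had a median of 0.10 over the 23 genes. The 95% confidence interval of the difference lay inside a 2-fold change for 22 of them, as it did for 65.0% of all genes. The exception was SNAP91, whose dim probe set left an interval from −0.93 to 1.26. The 23 genes were also brighter, with a median log2 signal of 11.67 against 8.46 for all genes. Intervals under the other settings are not given here. In no gene did treated and control retinas separate without overlap, where 4.30% of all genes did so upward and 2.70% downward. Of the 23 genes, 3 were higher in 3 of 3 pairs (SYT4, VAMP1 and NAPA) and 4 were lower (CABP4, UNC13B, SYNJ1 and STX3), against 19.3% and 13.6% of all genes. An interval that covers 0 does not show that a gene was the same in both retinas, and it bounds only how far apart they could be.

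**Figure D1:**
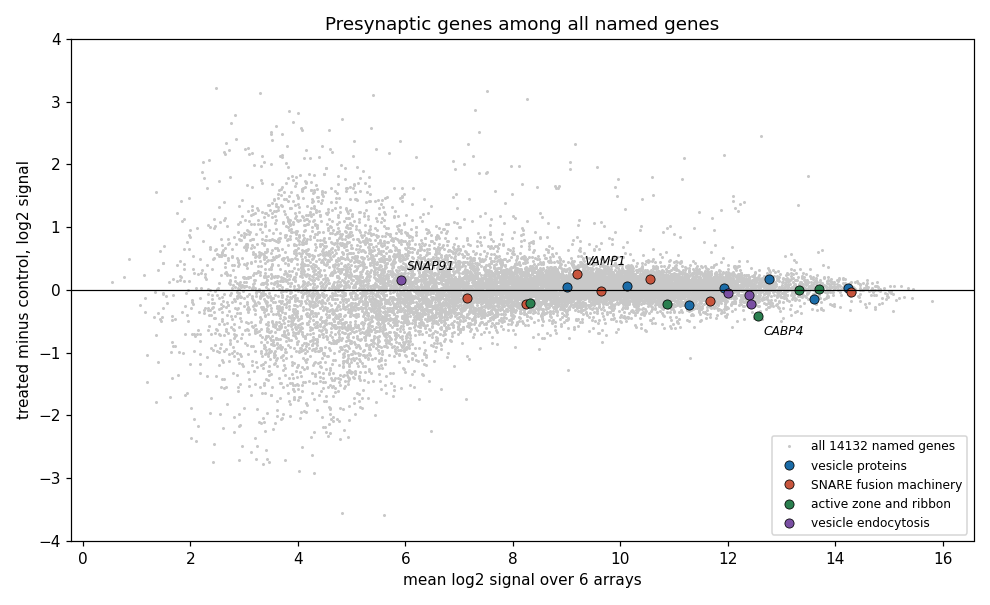
Treated minus control difference in log2 signal (vertical axis) against the mean log2 signal over 6 arrays (horizontal axis) for the brightest probe set of each of 14132 named genes (grey) and the 23 presynaptic genes, colored by role. The presynaptic genes sit between −0.41 (CABP4) and 0.25 (VAMP1), with CABP4 near the lower edge of the band formed by genes of like signal.

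The signal of some genes ranged widely over the monkeys. For 22 of the 23 genes the mean of both retinas ranged more widely over the 3 monkeys than treated and control retinas differed, DNM1 being the exception. The same held for 86.6% of all genes. A range over 3 means tends to exceed the size of 1 averaged difference even where monkeys do not differ. These counts therefore do not compare variation between monkeys with that between treatments. SLC17A7, VAMP2, RAB3A and VAMP1 had the widest ranges, of 2.26, 2.17, 1.32 and 1.26 on the log2 scale, and in each of them both retinas of replicate 1 were above those of the other 2 monkeys. The part of the animal, its array processing and its tissue sample in these ranges was not tested. Since the study's test was paired, the main fit set the treated retina against the control retina of the same replicate number, taken to be of the same monkey.

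**Figure D2:**
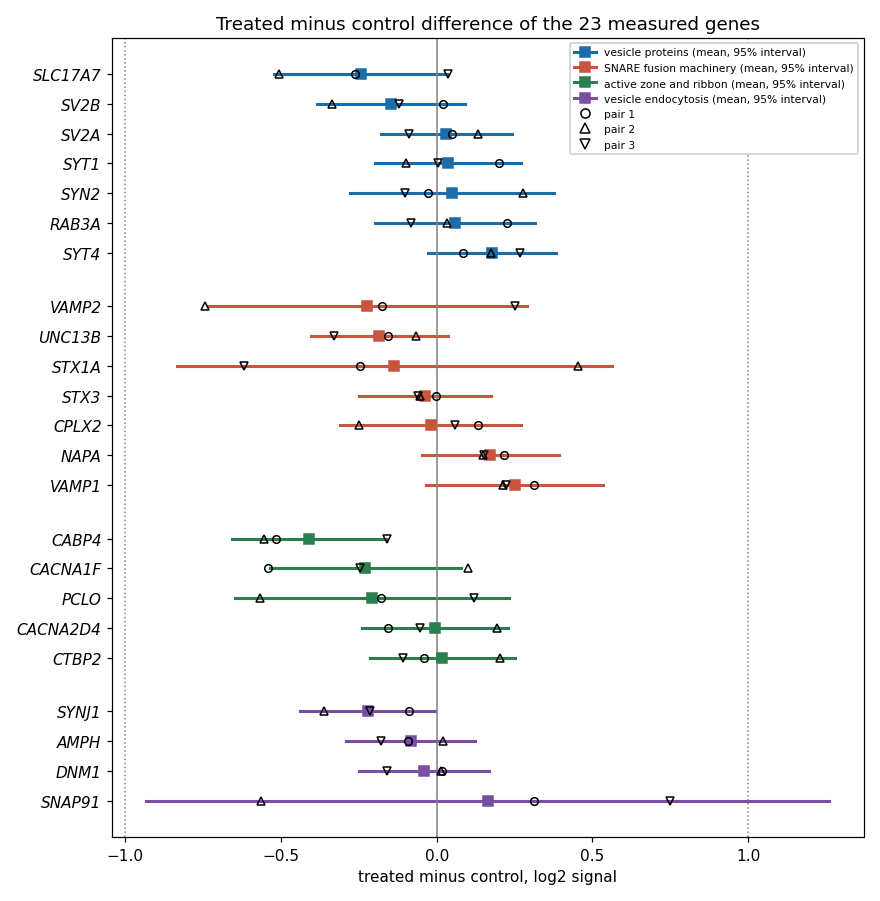
Treated minus control difference in log2 signal for the brightest probe set of each of the 23 genes, grouped by role, with the mean and its 95% confidence interval from limma (square and bar) and the 3 pairs as open symbols. The dotted lines mark a 2-fold change in either direction. The intervals of CABP4 and SYNJ1 lie below 0, and only that of SNAP91 crosses a dotted line.

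Among the vesicle proteins, 7 genes were measured, with a median difference of 0.035 and medians of 0.049, 0.033 and −0.082 in pairs 1 to 3. This median was 0.13 with centred arrays, where that of all genes was 0.13 too. The median of the vesicle proteins was below 0 without replicate 1 (−0.024), without replicate 2 (−0.019) and with the mean of all probe sets of a gene (−0.050). SLC17A7 encodes VGLUT1, the transporter that loads glutamate into the vesicles of photoreceptors and bipolar cells. Its log2 signal was 12.49, 11.61 and 10.08 in the control retinas of replicates 1 to 3 and 12.23, 11.11 and 10.12 in the treated ones. The treated retina was below its control in replicates 1 and 2 and level with it in replicate 3, and the groups overlapped widely (difference −0.24, SE 0.12, 95% interval −0.52 to 0.033, adjusted p = 0.752 from limma). SYT4, an atypical synaptotagmin, had signals of 12.82, 12.78 and 12.41 in control and 12.91, 12.96 and 12.68 in treated retinas. Each treated retina was above its own control, by 0.086, 0.17 and 0.27 (difference 0.18, SE 0.089, 95% interval −0.030 to 0.38, adjusted p = 0.752), but the lowest treated value was below the 2 highest control values.

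SV2B, an SV2 vesicle glycoprotein found at photoreceptor terminals, had signals of 13.24, 13.89 and 13.93 in control and 13.26, 13.55 and 13.81 in treated retinas. Treated retinas of replicates 2 and 3 were lower and that of replicate 1 was level (difference −0.15, 95% interval −0.38 to 0.090). Its relative SV2A, found widely at synapses, stood at 0.031 (95% interval −0.18 to 0.24). RAB3A, a small GTPase that tethers vesicles to the active zone, had signals of 10.89, 9.67 and 9.73 in control and 11.12, 9.70 and 9.65 in treated retinas. In replicate 1 both retinas were more than 1 above the rest, and the pairs gave 0.23, 0.033 and −0.082. SYN2, a synapsin that tethers vesicles to each other at conventional terminals, had a difference of 0.048 in the brightest of its probe sets and of −0.20 and −0.0020 in the dimmer ones. SYT1, the calcium sensor of fast release, had 0.035 in the brightest (95% interval −0.20 to 0.27) and −0.058, 0.079 and −0.27 in the dimmer ones. The last and dimmest of these carried the 1 large pair difference of the gene, −1.32 in replicate 2.

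In the fusion machinery 7 genes were measured, with a median difference of −0.039 (0.058 with the arrays centred on their medians and 0.038 without replicate 2). VAMP1, 1 of the synaptobrevins, had the highest difference of all 23 genes. Its signals were 9.82, 8.81 and 8.61 in control and 10.14, 9.02 and 8.83 in treated retinas. All 3 treated retinas were above their own controls by similar amounts, of 0.31, 0.21 and 0.22, while the spread between monkeys made the groups overlap (difference 0.25, SE 0.12, 95% interval −0.036 to 0.54, adjusted p = 0.752 from limma). VAMP2, the other synaptobrevin, had signals of 9.71, 8.03 and 7.33 in control and 9.54, 7.29 and 7.58 in treated retinas. Its pairs disagreed in direction, at −0.18, −0.74 and 0.25 (difference −0.22, 95% interval −0.73 to 0.29), so the synaptobrevins gave no common direction.

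UNC13B, a priming factor that opens syntaxin, had signals of 11.63, 11.60 and 12.04 in control and 11.48, 11.54 and 11.71 in treated retinas. Each treated retina was lower, by 0.16, 0.066 and 0.33 (difference −0.18, SE 0.094, 95% interval −0.40 to 0.036, adjusted p = 0.752). NAPA, alpha-SNAP, which helps to take used SNARE complexes apart, had signals of 10.78, 10.39 and 10.26 in control and 10.99, 10.54 and 10.41 in treated retinas. The treated retinas were higher in 3 of 3 pairs, by 0.21, 0.15 and 0.15 (difference 0.17, SE 0.095, 95% interval −0.048 to 0.39, adjusted p = 0.753), and the second probe set of the gene, at 0.028, was higher in 2 of the 3. STX3, the syntaxin of ribbon synapses, was nearly level, with 14.11, 14.43 and 14.42 in control and 14.11, 14.37 and 14.36 in treated retinas (difference −0.039, 95% interval −0.25 to 0.17), and its dimmer probe sets gave 0.070 and −0.31. STX1A, the syntaxin of conventional synapses, was dimmer and less precise, at −0.14 (95% interval −0.84 to 0.56), with pairs of −0.25, 0.45 and −0.62. CPLX2, a complexin that clamps SNARE complexes until calcium enters, stood at −0.019 (95% interval −0.31 to 0.27).

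The active zone and ribbon had 5 measured genes, with a median difference of −0.21, which stayed below 0 under each of the other settings tried, at −0.22 to −0.073. The pairs did not share this direction. The median was −0.18, 0.10 and −0.11 in pairs 1 to 3, and 3 of the 5 genes were above 0 in pair 2. CABP4, a calcium-binding protein that sets the activity of the photoreceptor calcium channel, had the lowest difference of all 23 genes. Its log2 signal was 12.33, 13.02 and 12.95 in the control retinas of replicates 1 to 3 and 11.81, 12.47 and 12.79 in the treated ones. Each treated retina was below its own control, by 0.52, 0.55 and 0.16, although the control retina of replicate 1 was below the treated retinas of the other 2 monkeys. The mean was 12.77 ± 0.38 (SD, 3 retinas) in control and 12.36 ± 0.50 (SD, 3 retinas) in treated retinas, a difference of −0.41 (SE 0.11, 95% interval −0.66 to −0.16), or 0.753 times the control level (95% interval 0.634 to 0.893). The adjusted p was 0.542 from limma, so CABP4 did not pass the test over all probe sets.

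Both other probe sets of CABP4 were also lower in 3 of 3 pairs. They gave −0.43 (SE 0.093, adjusted p = 0.406) and −0.63 (SE 0.16, adjusted p = 0.535). All 3 probe sets read the same RNA of the same pairs, and the dimmer ones are named for 1 target sequence, so they are not separate evidence. Under the 11 alternative settings the brightest probe set stayed between −0.54 and −0.31, with adjusted p from 0.224 to 1.00. Its unadjusted p was no longer under 0.05 with the arrays centred on their medians, without pairing, without the variance trend, by the methods' t-test and without replicate 1. The dimmer probe sets had lowest adjusted p of 0.096 and 0.070 from limma over 10 alternative settings.

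CACNA1F, the pore subunit of that channel, had signals of 10.89, 10.78 and 11.30 in control and 10.35, 10.88 and 11.05 in treated retinas. Treated retinas were lower in replicates 1 and 3 and higher in replicate 2 (difference −0.23, SE 0.13, 95% interval −0.54 to 0.077, adjusted p = 0.754 from limma). Without replicate 1 the difference was −0.073, and without replicate 2 it was −0.39 (adjusted p = 0.191), so single pairs decided its size. CACNA2D4, the auxiliary subunit of the channel in photoreceptors, was level by its brightest probe set, with 13.24, 13.14 and 13.59 in control and 13.08, 13.33 and 13.54 in treated retinas (difference −0.0067, 95% interval −0.24 to 0.23). Its second probe set was lower in 3 of 3 pairs, at −0.23 (SE 0.091, 95% interval −0.45 to −0.023, adjusted p = 0.730), so the probe sets of this gene did not give 1 answer.

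CTBP2, the host gene of RIBEYE, had 13.74, 13.54 and 13.82 in control and 13.70, 13.74 and 13.71 in treated retinas by its brightest probe set. Treated retinas were higher in replicate 2 alone (difference 0.018, 95% interval −0.21 to 0.25). The next 4 probe sets of CTBP2 lay between −0.14 and −0.050, all with intervals that cover 0, and the last, with a mean log2 signal of 2.27, gave −0.53 with an interval from −3.10 to 2.03. PCLO, piccolo, a scaffold of active zones, had signals of 8.50, 8.24 and 8.53 in control and 8.32, 7.68 and 8.65 in treated retinas. It was lower in replicates 1 and 2 and higher in replicate 3 (difference −0.21, 95% interval −0.65 to 0.23). The difference was −0.029 without replicate 2 and −0.37 without replicate 3, so here too single pairs decided its size.

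Photoreceptors are the cells in which CABP4 is used, and their markers are given beside it. All 8 rod markers were below 0 (44.5% of all genes were), 7 of them were lower in 3 of 3 pairs (13.6% of all genes), and 3 were lower at an unadjusted p under 0.05 (PDE6A, PDE6G and CNGA1, against 3.01% of all genes). Their median difference was −0.17. Their summed linear signal was 230219 to 265478 in control and 200060 to 247517 in treated retinas. None of the rod markers passed after adjustment (smallest adjusted p = 0.676 from limma). With the arrays centred on their medians 6 of 8 were below 0, with a median of −0.075. In that setting 4304 of all 14132 genes were below 0, with a median of 0.13. The 6 cone markers lay on both sides of 0, 4 below and 2 above, with a median of −0.082 (0.015 with centred arrays, 3 below and 3 above) and a summed linear signal of 63587 to 81721 in control and 56562 to 75367 in treated retinas. No rod or cone marker was at 0. In these bulk samples fewer photoreceptors and less RNA per photoreceptor cannot be told apart, and the part of either in the CABP4 difference was not tested.

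**Figure D3:**
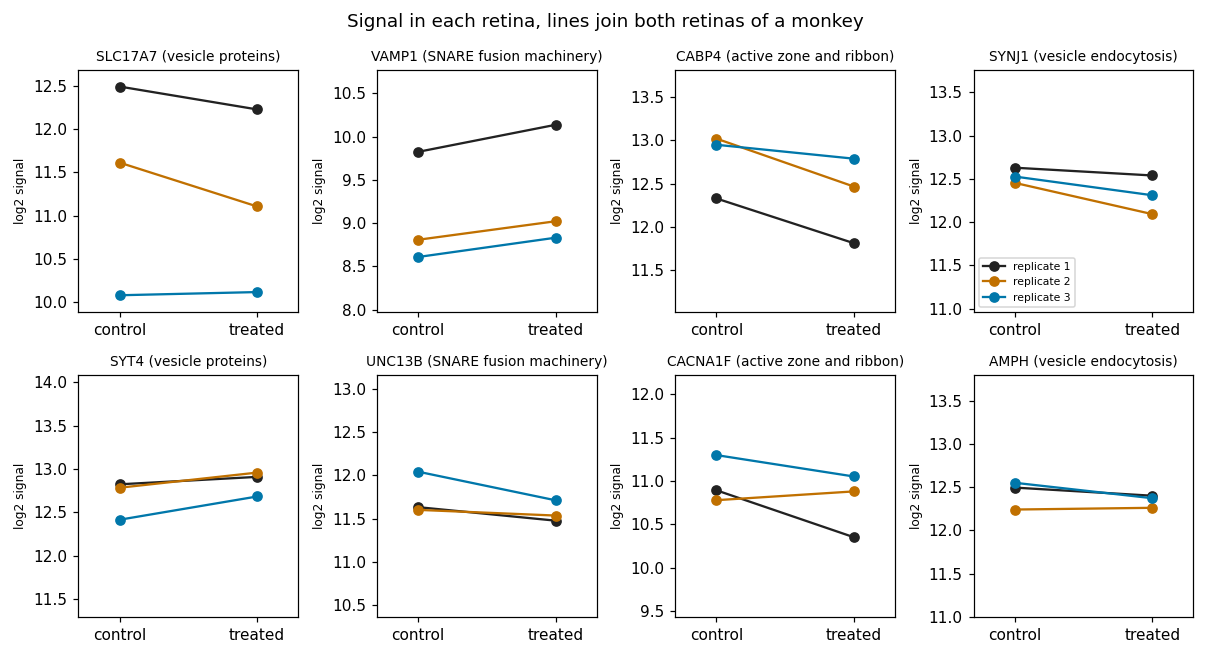
Log2 signal of the brightest probe set in each retina for the 2 genes with the largest moderated statistic in each of the 4 roles, with lines joining control and treated retina of a replicate number. Every vertical axis has the same length on the log2 scale. The 3 lines of CABP4, SYNJ1 and UNC13B slope down and those of VAMP1 and SYT4 slope up, while the lines of SLC17A7 and VAMP1 are set far apart by monkey.

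Of the genes that retrieve vesicle membrane, 4 were measured, with a median difference of −0.063 (0.034 with centred arrays). SYNJ1, synaptojanin, a lipid phosphatase that strips the clathrin coat after endocytosis, had signals of 12.63, 12.45 and 12.53 in control and 12.54, 12.09 and 12.31 in treated retinas. Each treated retina was below its own control, by 0.090, 0.36 and 0.22, with 1 treated value inside the control range. The difference was −0.22 (SE 0.093, 95% interval −0.44 to −0.0053, adjusted p = 0.736 from limma). The second probe set gave −0.25 (SE 0.10, adjusted p = 0.736), lower in 3 of 3 pairs, and the third, with a mean log2 signal of 4.58, gave −0.15 with an interval from −1.67 to 1.36. Its unadjusted p was no longer under 0.05 with centred arrays (difference −0.13), without pairing, without the variance trend, by the methods' t-test, with the mean of its probe sets and with any 1 replicate left out.

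AMPH, amphiphysin, which brings dynamin to the neck of the budding vesicle, had signals of 12.49, 12.24 and 12.55 in control and 12.40, 12.26 and 12.37 in treated retinas. The pairs gave −0.094, 0.020 and −0.18 (difference −0.084, 95% interval −0.29 to 0.12). DNM1, the dynamin of neurons, which cuts the vesicle free, was the most even of the genes, with 11.9834, 12.0016 and 12.0965 in control and 12.0003, 12.0161 and 11.9377 in treated retinas (difference −0.042, 95% interval −0.25 to 0.17). Its 6 values spanned less than those of any other gene of the list. SNAP91, AP180, a clathrin adaptor of nerve terminals, was the dimmest, with 5.53, 6.51 and 5.47 in control and 5.84, 5.94 and 6.22 in treated retinas. Its pairs gave 0.31, −0.57 and 0.75, and no direction could be read from them (difference 0.16, SE 0.47).

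**Figure D4:**
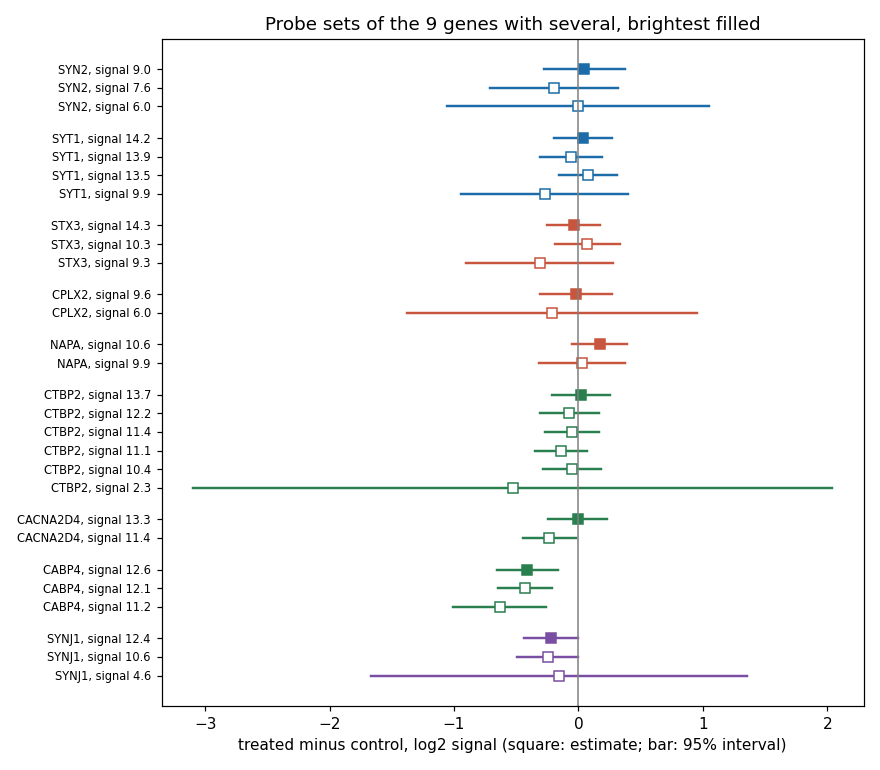
Treated minus control difference in log2 signal with its 95% confidence interval for every probe set of the 9 genes with several, the brightest of each filled, with the mean log2 signal beside the gene name. All 3 probe sets of CABP4 lie below 0 with intervals that exclude it, and the dim probe sets of CTBP2 and SYNJ1 have the widest intervals.

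Probe sets of the same gene often disagreed in sign where the differences were near 0. Of the 19 dimmer probe sets, 10 had the opposite sign to the brightest one (2 of SYN2, 2 of SYT1, 1 of STX3 and 5 of CTBP2), and 0 lay more than 1 away. Of all 42 probe sets, 6 had an unadjusted p under 0.05, all of them lower (3.77% of all 52024 probe sets were lower by this rule), and they belonged to CABP4, SYNJ1 and CACNA2D4. None of the 42 had an adjusted p under 0.05, as 0.111% of all probe sets had.

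The rest of the release pathway was read from a second list of 103 genes, of which 66 were measured. None passed at an adjusted p under 0.05 in either direction, the smallest adjusted p being 0.662, while the unadjusted p of limma was under 0.05 for 1 higher and 3 lower genes (5.02% and 3.01% of all genes) and that of the methods' t-test for 4 higher and 2 lower genes (4.21% and 2.84%). Their median difference was 0.052, with 38 above 0 and 28 below, where 55.5% of all genes were above. It was 0.15 with centred arrays, 49 above and 17 below, where all genes had a median of 0.13, 9828 above and 4304 below. Without replicate 2 it was 0.013, 35 above and 31 below, where all genes had 0.018, 7527 above and 6605 below. The lowest by moderated statistic was CADPS, a priming factor of vesicle release, with 12.18, 10.91 and 11.57 in control and 11.98, 10.20 and 11.29 in treated retinas. It was lower in 3 of 3 pairs (difference −0.39, SE 0.12, 95% interval −0.67 to −0.11, adjusted p = 0.662 from limma).

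CACNB2, the beta subunit that carries the photoreceptor calcium channel to the membrane, had 11.24, 11.65 and 11.29 in control and 11.04, 11.28 and 10.99 in treated retinas. It too was lower in 3 of 3 pairs (difference −0.29, SE 0.091, 95% interval −0.51 to −0.082, adjusted p = 0.676), with 1 treated value inside the control range. CACNA1B, the pore of the N-type calcium channel, stood at −0.47 (SE 0.17, 95% interval −0.87 to −0.064, adjusted p = 0.727). RAB27B, a GTPase of secretory vesicles, stood at −2.22, with groups that did not overlap (2.70% of all genes downward). However, its mean log2 signal was 3.53 and its interval ran from −4.44 to 0.0052. Under each alternative that can change the difference, CADPS, CACNB2, CACNA1B and RAB27B stayed below 0.

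The highest of the second list by moderated statistic was STX12, a syntaxin of endosomes, with 10.17, 10.27 and 10.84 in control and 10.44, 10.90 and 10.99 in treated retinas (difference 0.35, SE 0.12, 95% interval 0.074 to 0.63, adjusted p = 0.699 from limma). PPFIA2, a liprin of the active zone, had 9.55, 9.68 and 9.71 in control and 9.91, 9.92 and 9.88 in treated retinas (difference 0.26, 95% interval −0.0018 to 0.52, adjusted p = 0.744). Its groups did not overlap, as in 4.30% of all genes upward. With RAB27B this made 2 of the 66 genes without overlap. AP2M1, a subunit of the AP-2 clathrin adaptor, and ATP6V1H, a subunit of the proton pump that energizes vesicle filling, stood at 0.21 and 0.19, each higher in 3 of 3 pairs (adjusted p = 0.752 for both). Of the 22 clathrin and endocytosis genes of this list 16 were above 0, with a median of 0.096, while 8 of its 17 active zone and ribbon genes were above 0, with a median of −0.017. Its 18 vesicle proteins had a median of 0.041 and its 9 SNARE and priming genes one of −0.034. With the arrays centred these medians were 0.19, 0.080, 0.14 and 0.063 in the same order, where that of all genes was 0.13.

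Presynaptic genes come from several other cells of the retina, and markers of these are given here. The 7 bipolar cell markers had a median difference of 0.10 (0.0030 without replicate 2), with 0 called by the unadjusted p of limma or by the methods' t-test, and a summed linear signal of 21297 to 26336 in control and 21628 to 26133 in treated retinas. The 7 amacrine cell markers had a median of −0.21 (−0.063 without replicate 2 and −0.11 with centred arrays), with 3 above 0 (55.5% of all genes were). At an unadjusted p under 0.05 from limma 1 was lower (GAD2, against 3.01% of all genes). The summed linear signal of the amacrine markers was 12168 to 14253 in control and 12556 to 14258 in treated retinas. All 9 retinal ganglion cell markers were above 0 (55.5% of all genes were), with a median of 0.26. In 3 of 3 pairs 7 of them were higher (19.3% of all genes). At an unadjusted p under 0.05 from limma 5 were higher (5.02% of all genes), and 0 after adjustment. Their summed linear signal was 28426 to 34946 in control and 33113 to 43236 in treated retinas.

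The bulk tissue also holds glia and immune cells. The 7 Muller glia markers went both ways, 4 above and 3 below 0, with a median of 0.0072. At an unadjusted p under 0.05 from limma 2 were higher and 3 lower (5.02% and 3.01% of all genes), and 0 after adjustment. KCNJ10, RLBP1 and GLUL stood at −0.54, −0.45 and −0.28, and SLC1A3 and CRYM at 0.58 and 0.27. Their summed linear signal was 87383 to 113391 in control and 82406 to 110532 in treated retinas for all 7 markers. All 4 astrocyte markers were above 0 (55.5% of all genes were), among them PAX2 at 1.66 with a mean log2 signal of 3.94, under 5. Of these GFAP, the intermediate filament of reactive glia, rose (difference 2.14, SE 0.23, adjusted p = 0.0303 from limma), being higher in 3 of 3 pairs. However, its adjusted p was 0.158 without replicate 1, 0.851 without pairing, 0.854 without the variance trend and 0.0759 with the mean of its probe sets. The methods' t-test did not call GFAP after adjustment. The summed linear signal of the 4 was 2796 to 5408 in control and 6424 to 20429 in treated retinas. Most of the sum in treated retinas was GFAP, while S100B and ALDH1L1 differed by 0.17 and 0.12. Of the 8 markers of microglia and leukocytes 6 were above 0, against 55.5% of all genes, with a median of 0.61. At an unadjusted p under 0.05 from limma 4 were higher (5.02% of all genes), and 0 after adjustment. Their summed linear signal was 1981 to 2290 in control and 2346 to 2766 in treated retinas. No marker of these cell types was at 0, and their part in the presynaptic values, those of SYT4, VAMP1 and NAPA included, was not tested.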

How the data were processed

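Total RNA of 6 temporal retinas, 3 treated and 3 control, was labelled with biotin and hybridized to 1-color Affymetrix Rhesus Macaque Genome Arrays. The authors computed MAS 5.0 signals with GeneSpring and deposited them as log2 values. Each array is scaled alone, so arrays keep different medians, and a MAS5 version was not given in the sources used here. For 52024 probe sets the paired difference between treated and control was then fitted with limma 3.58.1 in R 4.3.3, using eBayes with a trend, a block for each replicate number and Benjamini-Hochberg adjustment over all probe sets. The scripts were first tested on simulated data. The methods' t-test was run on the same values.

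Retinas of the same number were taken to come from 1 monkey, since the study's test was paired. The sample labels give a replicate number and no monkey. The deviations of their arrays from the group means had correlations of 0.357, 0.137 and 0.161. Retinas of unlike number had −0.243 to 0.104, so the match of replicates 2 and 3 was weakly marked. Probe sets were named by the platform annotation. No genome position or sequence is given, since no genome was used. The genes and lists were chosen with earlier results of these data known. All 23 genes are accounted for, with every array given for the 4 in each role with the largest moderated statistic. Of the second list, the 4 highest and 4 lowest are named. Alternatives were the fit without pairing, quantile normalization, median centring, a filter at a mean log2 signal of 5, log2 of the signal plus 32, eBayes without trend, the mean of all probe sets of a gene and leaving out each replicate. Figures were drawn with matplotlib 3.10.9.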

Additional observations from a re-analysis of the deposited data

How the results depend on the processing

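Under the 11 alternative settings 0 of the 23 genes and 0 of the 66 further pathway genes passed at an adjusted p under 0.05. With dimmer probe sets left aside, the smallest adjusted p of any of the 23 was 0.191 from limma (CACNA1F without replicate 2). The dimmer probe sets of CABP4 reached 0.096 and 0.070 from limma. Of 253 recomputed differences, 232 kept their direction and 21 changed sign, in 13 genes, and the 10 genes with no sign change included CABP4, SYNJ1, VAMP1 and NAPA. Many of the 232 could not have changed. The fit without pairing, the fit without the trend, the methods' t-test and the filter leave each difference as it was. The mean of all probe sets does so for genes with 1 probe set. The 2 genes lower at an unadjusted p under 0.05 became 0 with no replicate block (the fit without pairing, where 0 were higher too), with centred arrays, without the trend and by the methods' t-test (2 higher), 1 with the mean of all probe sets, and 0 to 3 when a replicate was left out, 0 without replicate 1. Of the further pathway genes, 1 higher and 3 lower became 0 and 1 with no replicate block, 2 and 0 with centred arrays, 0 and 0 without the trend, 4 higher by the methods' t-test, 0 higher with the mean of all probe sets, and 0 to 2 higher and 1 to 4 lower when a replicate was left out.

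Centring the arrays moved the median of the 23 genes to 0.058, of vesicle proteins to 0.13, of the fusion machinery to 0.058 and of endocytosis genes to 0.034. That of all genes moved to 0.13. The mean of all probe sets gave −0.12 for the 23 genes, −0.050 for vesicle proteins and −0.12 for the fusion machinery. With a replicate left out the medians ran from −0.072 to −0.028 for the 23 genes, −0.024 to 0.090 for vesicle proteins, −0.083 to 0.038 for the fusion machinery, −0.22 to −0.073 for the active zone and ribbon and −0.10 to −0.076 for endocytosis genes. Signs changed with centred arrays for STX3 (0.058), CPLX2 (0.078), CACNA2D4 (0.090), DNM1 (0.055) and AMPH (0.013), with quantile normalization for SYT1 (−0.0015), and with the mean of all probe sets for SYN2 (−0.050), SYT1 (−0.054) and CTBP2 (−0.14). With a replicate left out, signs changed without replicate 1 for SYT1 (−0.047 to 0.10), RAB3A (−0.024 to 0.13) and CACNA2D4 (−0.11 to 0.068, also without replicate 3). They changed without replicate 2 for SYN2 (−0.065 to 0.12), SV2A (−0.019 to 0.090), VAMP2 (−0.46 to 0.038), CPLX2 (−0.095 to 0.096) and CTBP2 (−0.074 to 0.081), and without replicate 3 for STX1A (−0.43 to 0.10), SNAP91 (−0.13 to 0.53) and DNM1 (−0.072 to 0.016), each with its lowest and highest value. The causes were not tested. The dim probe sets of SNAP91, CTBP2 and SYNJ1 had intervals that reach past a 2-fold change, as did the dimmest probe set each of SYN2, CPLX2 and CABP4.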
